A study of Mus musculus with 6 samples.

Results

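Genes for voltage-gated and potassium channels were compared between neuro2a cells with and without knockdown of NF-Y, the trimeric factor that recognises CCAAT boxes. The set was every gene of the RefSeq mouse table (GRCm38.p6) whose symbol starts with Kcn, Cacna1, Cacna2d, Cacnb or Cacng, or with Scn and a digit, which gave 138 of 49997 genes. The rule reads names only, although the group was picked with earlier results of these data known. Neuro2a is a mouse neuroblastoma line, and all 6 single-colour Agilent arrays carried total RNA of transfected cells of that line. The 3 control arrays ("Vector" in the labels) came from cells given an empty miR RNAi vector, and the 3 knockdown arrays ("YAYC") from cells given vectors that target NF-YA and NF-YC. The vectors were introduced by lipofection, so each RNA pooled cells that had taken up the vector with any that had not. The labels do not say whether replicates were separate cultures, so p-values measure only the spread between these arrays.

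Voltage-gated channels sense the membrane potential through a pore-forming subunit and open or close as the potential changes. Sodium channels carry the upstroke of the action potential, calcium channels couple it to secretion and to gene expression, and potassium channels bring the membrane back to rest. Auxiliary subunits set how fast the pores open, how they inactivate and how many reach the surface. Inward rectifiers and tandem-pore leak channels lack a classical voltage sensor and hold the resting potential of neurons.

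Signals are given as log2 values after subtraction of the array's 75th percentile, so 0 is that percentile and 1 unit is a doubling. A change is the knockdown mean minus the control mean on this scale. Each gene was read from its brightest probe, and a gene counted as called when the limma adjusted p was below 0.05 and the fold change was above 1.5. As a check of the labels, Nfya read 0.14, 0.15 and 0.21 on the control arrays and -0.66, -0.52 and -0.59 on the knockdown arrays, and Nfyc changed by -1.81 (SE 0.045, limma adjusted p = 0.000323). Between 61.9% and 66.2% of spots per array were well above background by the scanner software's flag. All arrays lay on 1 slide, with the 3 control arrays and knockdown array 1 in its upper row and knockdown arrays 2 and 3 in the lower row. All 18 genes of a list of sympathetic neuroblastoma markers were well above background on every array, including Th and Dbh. So were 84.8% of all genes tested, 6 of 8 fibroblast and endothelial markers and 3 of 7 blood-cell markers. The flag by itself therefore does not identify the cell type.

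Of the 138 channel genes, 134 had a probe that matched, and the exceptions were Scn9a, Scn3b, Kcnd3os and Kcnmb4os2. The brightest probe of 68 genes was well above background on all 6 arrays, and that of 43 genes on none. Dim probes were set aside: testing needed a signal at or over the array's 20th percentile throughout one group or both, and 96 channel genes met this. Of these, 88 passed in both groups. The other 8 passed in 1 group only, so a difference was built into their passing: Cacna2d1, Kcna10, Kcng2 and Kcnk7 in control, and Kcnh7, Kcnmb3, Kcnt1 and Scn10a in knockdown. Among tested channel genes 70.8% were well above background on all 6 arrays, against 84.8% of the 16490 genes tested in all.

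The calcium channel pore genes were detected most completely, with 8 of 10 well above background on all 6 arrays, and the silent Kv genes least, with 1 of 10. Untested Kv pore genes included Kcna1, Kcna2, Kcnc2, Kcnd2, Kcnh1, Kcnh8, Kcnq1 and Kcnq3, among them the textbook axonal channels Kcna1 and Kcna2 and the M-current subunit Kcnq3. Other untested potassium channel genes were Kcng3, Kcns1, Kcns2, Kcns3, Kcnv1 and Kcnv2 (silent), Kcne1, Kcne4 and Kcnip4 (auxiliary), Kcnmb1, Kcnn1 and Kcnt2 (calcium- or sodium-activated), Kcnj1, Kcnj2, Kcnj6, Kcnj8 and Kcnj16 (inward rectifiers) and Kcnk2, Kcnk5, Kcnk10 and Kcnk18 (leak). Cacna1e, Cacna2d3, Cacnb2, Cacnb4, Cacng1, Scn7a, Scn2b and the noncoding Kcnmb4os1 were also not tested.

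**Figure D1:**
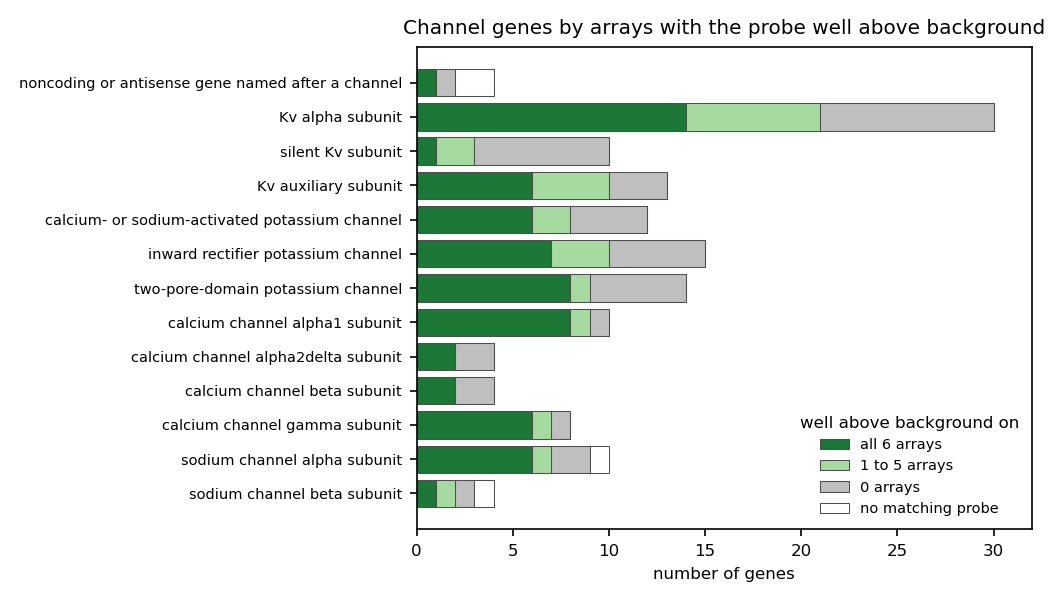
Number of channel genes per class (x axis) by how many of the 6 arrays had the gene's brightest probe well above background. Of all 138 genes, 68 were detected on all 6 arrays, 43 on none, and 4 had no matching probe.

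Kcnab1, Kcnh2, Kcnip3 and Cacna2d1 were called lower, and Kcna5, Kcnj14, Kcne2, Kcne3, Scn3a and Kcnc1 were called higher. That is 10 of 96 (10.4%), against a background of 8.90% of all genes tested (5.0% lower and 3.91% higher). Higher calls made up 60% of the channel calls and 43.9% of all calls. This split depended on the scaling: quantile normalization gave 5 lower and 4 higher (44.4% higher, beside 41.4% of all calls), the 75th percentile of well-detected probes gave 4 lower and 9 higher (69.2%, beside 52.7%), and normexp background correction gave 3 lower and 1 higher (25%, beside 33.2%). The share over all genes moved in the same direction each time. The cause of these shifts was not tested.

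With no minimum fold, 7 were lower and 16 higher at an adjusted p below 0.05, which is 24.0% of the 96 against 31.5% of all genes tested. Control and knockdown arrays did not overlap for 17 channel genes with lower and 21 with higher knockdown values, which is 39.6% against a background of 54.7%. The median change of the 96 was 0.054, beside 0.0053 over all genes tested, and the median size of a change was 0.25 beside 0.20. Changes lay below 0 for 42 channel genes and above 0 for 54.

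**Figure D2:**
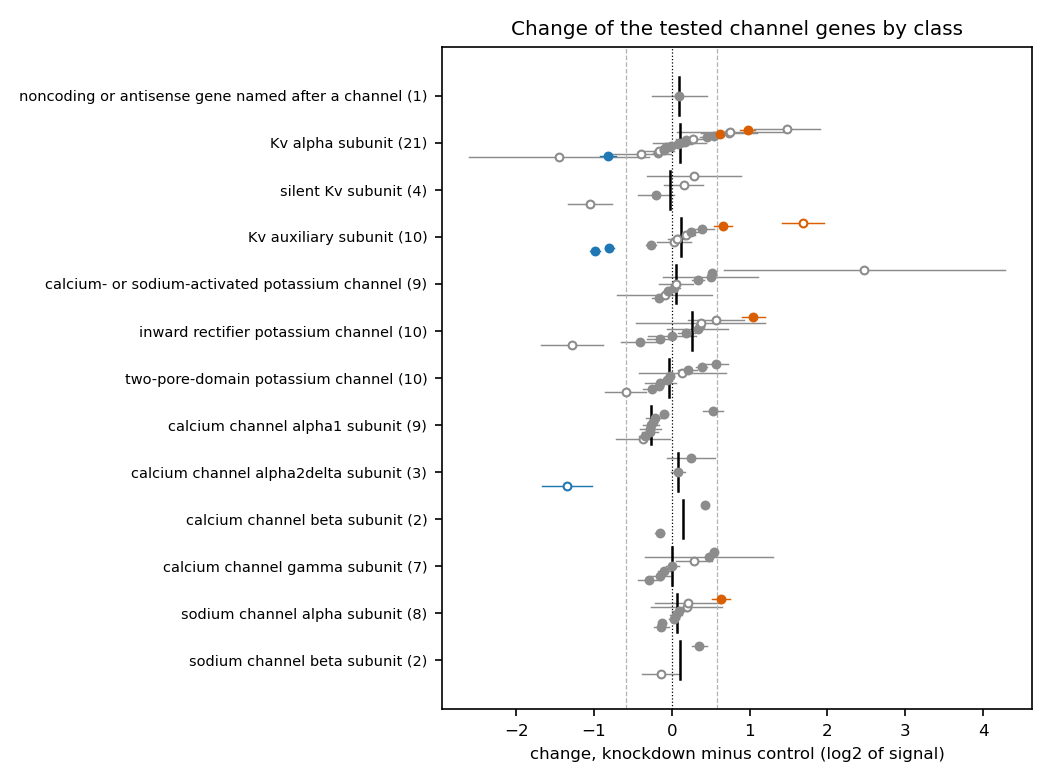
Change (knockdown minus control, log2 of signal, ± SE) of the 96 tested channel genes by class, with the number tested in brackets. Blue points were called lower, orange points higher and grey points neither; filled points were well above background on all 6 arrays, black bars are class medians and dashed lines mark a 1.5-fold change. Of 9 calcium channel alpha1 genes, 8 lie below 0 and Cacna1a lies at 0.53.

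The Kv pore subunits open on depolarisation and carry the outward current that ends each spike. Of 30 genes in this class 21 were tested, and 1 was called lower and 2 higher (14.3%, beside 8.90% of all genes tested). Kcnh2 encodes the ERG channel, whose slow resurgent current helps repolarise heart muscle and damps firing in some neurons. Kcnh2 signal was 0.43, 0.35 and 0.28 on control arrays and -0.55, -0.57 and -0.27 on knockdown arrays. The groups did not overlap, the knockdown arrays being lower. Kcnh2 fell by 0.82 (SE 0.10, 1.76-fold, limma adjusted p = 0.00529) and was called lower in each of 20 alternative analyses, with changes from -0.91 to -0.72.

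Kcna5, a delayed rectifier of the Shaker family, moved the other way. Its signal was -0.90, -1.01 and -1.04 in control and 0.13, 0.03 and -0.19 in knockdown. Every knockdown value lay above the control values. Kcna5 rose by 0.97 (SE 0.098, 1.97-fold, limma adjusted p = 0.00293), and the call was made in 20 of 20 alternatives. Kcnc1 belongs to the Shaw family, whose channels allow fast repetitive firing. It read -2.73, -2.54 and -2.69 in control and -1.99, -2.07 and -2.03 in knockdown, again without overlap. The rise was 0.63 (SE 0.066, 1.54-fold, limma adjusted p = 0.00339), just past the fold threshold. The change of its other probe was 0.45 (SE 0.40), and the Kcnc1 call was lost with quantile normalization (0.58), with normexp (0.43 and 0.38) and with the mean of both probes (0.54).

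Kcnq5, an M-channel subunit, changed by 0.45 (limma adjusted p = 0.0226) and was not called. Kcnd3, which carries A-type current, had a change of -0.0055 (SE 0.071), and its groups overlapped.

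Kcnb2 was read from a dim probe. It cleared background on no control array and on 2 of 3 knockdown arrays, with values of -7.30, -6.08 and -7.04 in control and -4.77, -5.35 and -5.86 in knockdown. Here and below, a bound sets the undetected group at the lowest well-detected signal of each array, or its own signal if higher. The bound for Kcnb2 was 1.78-fold higher in knockdown. It takes every knockdown value as read, including the array that did not clear background, so it is not a strict lower limit. The limma adjusted p was 0.0656 and Kcnb2 was not called, although it was called without control array 2 and with a variance trend. Kcna6 spanned -1.17 to -5.31 within the control arrays, and its change of -1.45 had an SE of 1.16.

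Silent Kv subunits conduct only inside tetramers with another Kv subunit. Only 4 of 10 were tested (Kcnf1, Kcng1, Kcng2 and Kcng4), and none was called, while 1 had an unadjusted limma p below 0.05. Of all genes tested, 46.2% reached that unadjusted p. Kcnf1, the one well above background on all 6 arrays, had a change of -0.21 with an SE of 0.23. Kcng2 did not clear background on any of the 6 arrays, so no fold is given, and its limma adjusted p was 0.0518.

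Auxiliary Kv subunits held 4 of the 10 calls, from 10 tested genes of 13 (40% of those tested, beside 8.90% of all genes tested). This class joins the cytosolic beta subunits (Kcnab), the single-span KCNE proteins (Kcne), the calcium-binding KChIP proteins (Kcnip) and the Kv regulator Kcnrg. Kcnab1 and Kcnip3 fell while Kcne2 and Kcne3 rose, and the calls of Kcne2 and Kcne3 were lost in some alternatives. Of the remaining 6 none was called, and their changes ran from -0.26 (Kcne1l, limma adjusted p = 0.0419) to 0.39 (Kcnab2, limma adjusted p = 0.158).

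Kcnab1 encodes a beta subunit that binds Shaker-type pores and speeds their inactivation. Its control signals were 1.77, 1.77 and 1.82, and its knockdown signals were 0.82, 0.69 and 0.89. The knockdown arrays lay below the controls by much more than either group's spread (SD 0.028 and 0.10, n = 3 each). Kcnab1 fell by 0.99 (SE 0.066, 1.98-fold, limma adjusted p = 0.00108) and was called lower in 20 of 20 alternatives, with changes from -1.03 to -0.91.

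Kcnip3 encodes KChIP3, also known as calsenilin or DREAM, a calcium sensor that binds Kv pores of the A-type. It read 1.27, 1.29 and 1.15 on control arrays and 0.43, 0.38 and 0.49 on knockdown arrays. Neither this probe nor the other Kcnip3 probe had overlapping groups. The fall was 0.80 (SE 0.060, 1.74-fold, limma adjusted p = 0.0014), and the other probe fell by 0.96 (SE 0.057, limma adjusted p = 0.000785). Both were called lower, and the brighter one was called in 20 of 20 alternatives. Kcnip1 and Kcnip2 had changes of 0.06 and 0.03, each within its standard error.

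Kcne2 and Kcne3 encode small membrane proteins that join Kv pores such as those of Kcnq1 and Kcnh2. Kcne2 did not clear background on the control arrays (-7.42, -7.12 and -6.80) but did on the 3 knockdown arrays (-4.98, -5.47 and -5.84). The groups did not overlap, and knockdown was at least 1.74-fold higher (limma adjusted p = 0.012). The Kcne2 call was lost with normexp under either scaling and with the replicate number as a block. Kcne3 was -4.88, -4.73 and -4.47 in control and -4.10, -3.97 and -4.04 in knockdown. It rose by 0.66 (SE 0.12, 1.58-fold, limma adjusted p = 0.016), without overlap. The Kcne3 call was lost without control array 1 (0.56), control array 2 (adjusted p 0.0599), knockdown array 2 (0.0581) or knockdown array 3 (0.0573), with slide row as a block (0.60, adjusted p 0.13), with quantile normalization (0.55) and with normexp (0.22 and 0.16). Its dimmer probe spanned -4.90 to -2.44 in knockdown, and with the mean of both probes the change was 1.62 (limma adjusted p = 0.0547).

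**Figure D3:**
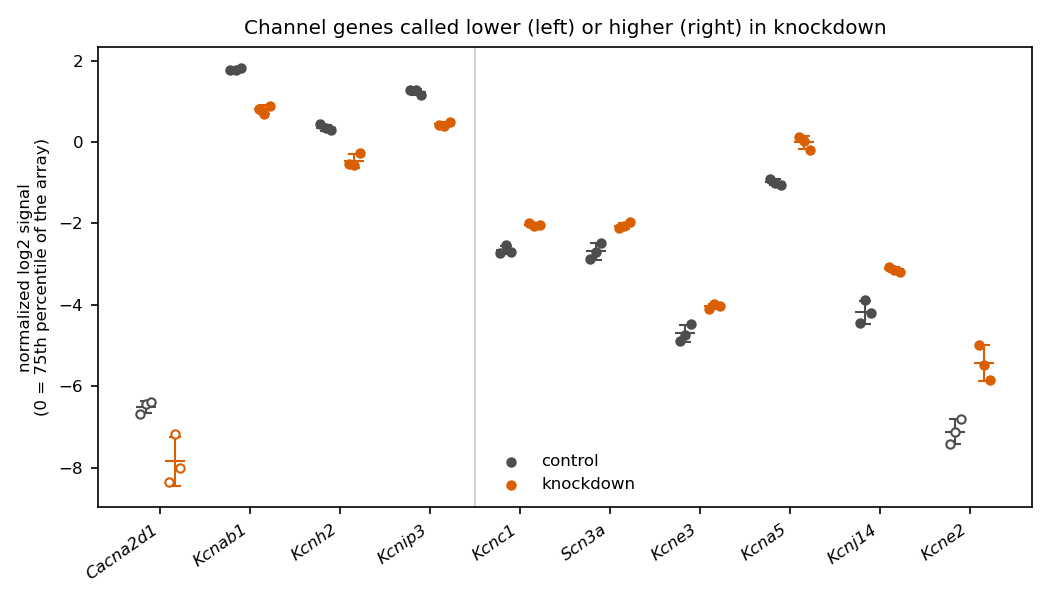
Normalized log2 signal (0 is the 75th percentile of the array) of the 10 called channel genes on the 3 control and 3 knockdown arrays, with mean and SD. Open points mark groups whose arrays were not all well above background. The groups do not overlap for any of the 10 genes, which were called on these same values, so this is no further evidence. Groups did not overlap for 54.7% of all genes tested.

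The promoters of the called genes were read for the NF-Y motif. The RefSeq table (GRCm38.p6) holds 300-base windows, from 250 bases before to 50 after a transcript start, for 102 channel genes. CCAAT, or ATTGG on the opposite strand, lay in 41 of 138 channel windows (29.7%) and in 37.4% of the 32851 windows of all genes. Among called genes it lay in 2 of 8 windows of lower genes and 1 of 6 windows of higher genes, and Scn3a and Kcnj14 have no window in the table. These windows belong to Kcnip3 (2 of its 3) and Kcne3 (1 of its 2). The 250 bases before the start are printed for these, with the motif in capitals, and for Kcnh2, whose single window holds no match. Coordinates are GRCm38.p6, and the sequence reads 5′ to 3′ on the gene's strand.
Kcnip3, chr2:127522095-127522344, minus strand: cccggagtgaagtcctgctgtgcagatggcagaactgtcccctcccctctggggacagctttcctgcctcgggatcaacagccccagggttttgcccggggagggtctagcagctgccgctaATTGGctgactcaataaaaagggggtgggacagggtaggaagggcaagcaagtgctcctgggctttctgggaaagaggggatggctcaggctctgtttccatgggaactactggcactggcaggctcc
Kcnip3, chr2:127482500-127482749, minus strand: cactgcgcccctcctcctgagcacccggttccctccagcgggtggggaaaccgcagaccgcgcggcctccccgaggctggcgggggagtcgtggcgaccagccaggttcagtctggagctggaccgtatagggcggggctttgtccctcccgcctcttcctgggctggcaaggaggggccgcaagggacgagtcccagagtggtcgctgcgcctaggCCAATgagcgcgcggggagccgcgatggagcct
Kcne3, chr7:100176420-100176669, plus strand: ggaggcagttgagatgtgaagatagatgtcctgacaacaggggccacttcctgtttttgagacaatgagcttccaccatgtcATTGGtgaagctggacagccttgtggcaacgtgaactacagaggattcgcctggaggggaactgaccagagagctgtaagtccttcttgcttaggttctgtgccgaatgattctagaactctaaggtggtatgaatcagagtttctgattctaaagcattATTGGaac
Kcnh2, chr5:24329592-24329841, minus strand: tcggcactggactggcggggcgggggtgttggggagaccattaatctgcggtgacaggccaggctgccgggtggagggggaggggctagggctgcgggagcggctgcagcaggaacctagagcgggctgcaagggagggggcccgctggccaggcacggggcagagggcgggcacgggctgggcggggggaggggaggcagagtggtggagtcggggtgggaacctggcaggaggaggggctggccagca

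In the Kcnip3 windows the motif starts 128 and 33 bases before the transcript start, and in the Kcne3 window 168 and 8 bases before it. A match is a description of the letters and does not show that NF-Y binds there. The windows of Kcnab1, Kcna5, Kcnc1, Kcne2 and Cacna2d1 in the table hold no match, which says only that these letters are not in them.

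Calcium- and sodium-activated potassium channels open with a rise of the internal ion and couple spikes to the afterhyperpolarisation. None of the 9 tested genes of 12 was called by its brightest probe, beside 8.90% of all genes tested. An unadjusted limma p below 0.05 was reached by 2 of the 9, beside 46.2% of all genes tested. Kcnmb4, the neuronal beta subunit of the BK channel, was 1.520, 1.495 and 1.504 in control and 2.05, 2.01 and 2.02 in knockdown. Replicates were very close and the groups far apart, yet the change of 0.52 (SE 0.038, limma adjusted p = 0.00135) was 1.43-fold and fell short of the threshold. Its other probe changed by 0.31 (limma adjusted p = 0.00578).

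The BK pore gene Kcnma1 gave different answers by probe. The brightest probe had -3.13, -3.00 and -3.10 in control and -3.37, -3.26 and -3.10 in knockdown, a change of -0.17 (limma adjusted p = 0.22). The other probe read -4.46, -4.49 and -4.40 in control and -5.13, -5.12 and -5.12 in knockdown, and was called lower with a change of -0.68 (SE 0.044, limma adjusted p = 0.00102). Kcnn3, an SK channel gene, had a similar conflict: the brightest probe scattered from -3.26 to -0.88 across knockdown arrays (change 0.50, SE 0.61), and the other was called lower at -0.74 (limma adjusted p = 0.0252). Kcnn2, another SK gene, had a change of 0.027 with an SE of 0.076. Kcnt1 read -0.79 on knockdown array 2 against at most -5.95 on the other arrays, and its limma adjusted p was 0.389.

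Inward rectifiers pass potassium inward near the resting potential, and several are gated by G proteins or ATP. Of 15 genes 10 were tested and 1 was called, beside 8.90% of all genes tested. Kcnj14 had -4.44, -3.88 and -4.21 in control and -3.06, -3.13 and -3.18 in knockdown. It rose by 1.05 (SE 0.15, 2.07-fold, limma adjusted p = 0.00846), and the groups did not overlap. Its other probe, which cleared background on no control array and 1 knockdown array, passed the call rule for higher as well (limma adjusted p = 0.0475), but no fold is given for so dim a probe. With slide row as a block the Kcnj14 change was 1.11 and the adjusted p 0.068, and with normexp it was 0.55 or 0.50, so the call was lost.

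Kcnj12 (change 0.36, limma adjusted p = 0.00714) passed the test without the fold. Kcnj10, known from glia, read -5.01, -5.29 and -5.36 in control and cleared background on none of the knockdown arrays (-6.26, -7.35 and -5.89). Control was at least 1.64-fold higher, and with a limma adjusted p of 0.0795 Kcnj10 was not called. It was called lower without knockdown array 2, with quantile normalization and with a variance trend. The G-protein-gated genes Kcnj3, Kcnj5 and Kcnj9 had adjusted p-values of 0.783, 0.31 and 0.30.

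Tandem-pore leak channels set resting conductance and respond to pH, stretch or anaesthetics. None of 10 tested genes was called, beside 8.90% of all genes tested. An unadjusted limma p below 0.05 was reached by 3 of the 10, beside 46.2% of all genes tested. Kcnk6 was nearest, with -4.64, -5.01 and -4.51 in control and -4.24, -4.11 and -4.09 in knockdown. Its change of 0.57 (SE 0.14, limma adjusted p = 0.0441) was 1.49-fold and without overlap. Kcnk6 was called when scaled to well-detected probes (0.63), with array weights (0.63) or without control array 3 (0.68). Kcnk1 changed by 0.38 (limma adjusted p = 0.0162). The acid-sensitive leak channel gene Kcnk3 had -0.017 (SE 0.046) and Kcnk9 -0.15 (SE 0.20), both within the spread.

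The calcium channel alpha1 genes, which encode the pores, gave no call among 9 tested genes. A change below 0 was seen for 8 of them, where the median over all genes tested was 0.0053. With no minimum fold, 2 of these 8 had a limma adjusted p below 0.05, beside 31.5% of all genes tested in either direction. Cacna1f, another of the 8 (change -0.37, SE 0.35), was well above background on only 3 arrays. The groups did not overlap for 6 of the 9 (5 lower and 1 higher), a share near the 54.7% of all genes tested. An unadjusted limma p below 0.05 was reached by 5 of the 9, beside 46.2% of all genes tested. The class median was -0.26, and it ranged from -0.37 to -0.044 over 19 alternatives, with 7 or 8 genes below 0 in each. The T-type pore Cacna1g had -2.39, -2.19 and -2.20 in control and -2.61, -2.57 and -2.64 in knockdown. Knockdown was lower with no overlap, a change of -0.35 (SE 0.070, limma adjusted p = 0.0233), though its dimmer probe scattered from -4.50 to -1.93 across knockdown arrays and the mean of both probes gave -0.07. Cacna1i, another T-type pore, changed by -0.24 (SE 0.057, limma adjusted p = 0.0363). Its other probe, also well above background on all 6 arrays, changed by -0.060 (SE 0.13, limma adjusted p = 0.786). The mean of both Cacna1i probes gave -0.15 (limma adjusted p = 0.205). Cacna1h had a change of -0.096 (limma adjusted p = 0.254).

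L-type Cacna1c, Cacna1d and Cacna1s had changes of -0.28, -0.28 and -0.26, with limma adjusted p-values of 0.115, 0.216 and 0.137. Cacna1b, the N-type pore, had a change of -0.22 (limma adjusted p = 0.259). The exception was Cacna1a, the P/Q-type pore that serves fast transmitter release. It read -1.73, -1.80 and -2.07 in control and -1.17, -1.37 and -1.49 in knockdown. Knockdown was higher without overlap, with a change of 0.53 (SE 0.13, limma adjusted p = 0.0406), 1.44-fold and not called, and the other probe changed by 0.49 (limma adjusted p = 0.0156).

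Calcium channel auxiliary subunits traffic the pore and tune its gating. Of these Cacna2d1 was called lower, but its probe cleared background on none of the 6 arrays. Its values were -6.67, -6.44 and -6.38 in control and -8.35, -7.17 and -8.02 in knockdown, so no fold is given. It was tested only because control passed the filter, its limma adjusted p was 0.0386, and the call was made in 7 of 18 alternatives. It was lost without control array 1, 2 or 3 or knockdown array 1 or 3, with adjusted p-values from 0.0803 to 0.113. Cacna2d2 and Cacna2d4 had changes of 0.078 and 0.24, each below its standard error.

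Cacnb3 encodes a cytosolic beta subunit common in neurons. It had 1.97, 1.97 and 1.99 in control and 2.43, 2.40 and 2.40 in knockdown. These groups lay apart by far more than their spread, and the change of 0.43 (SE 0.038, limma adjusted p = 0.00209) was 1.35-fold and not called. Cacnb1 had a change of -0.15 (limma adjusted p = 0.124). Among 7 gamma genes, which include regulators of AMPA receptors, none was called, beside 8.90% of all genes tested. An unadjusted limma p below 0.05 was reached by 1 of the 7, beside 46.2% of all genes tested. That gene, Cacng4, read -2.79, -2.81 and -2.88 in control and -2.28, -2.32 and -2.27 in knockdown, a change of 0.54 (SE 0.046, limma adjusted p = 0.00196) that passed the fold threshold only when scaled to well-detected probes (0.59). Cacng2, the stargazin gene, was well above background on 1 array only and had a limma adjusted p of 0.427.

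Voltage-gated sodium channel pores carry the spike, and 8 of 10 genes were tested. Scn3a, a pore typical of the developing brain, was the one called (12.5% of the 8, beside 8.90% of all genes tested). Its signals were -2.88, -2.71 and -2.47 in control and -2.12, -2.06 and -1.98 in knockdown. All knockdown values exceeded all control values, and Scn3a rose by 0.64 (SE 0.12, 1.55-fold, limma adjusted p = 0.0179). The other Scn3a probe changed by 0.58 (limma adjusted p = 0.0281), just under the fold threshold. The call was lost without control array 1 (0.54) or 2 (adjusted p 0.0642), without knockdown array 2 (0.0589) or 3 (0.0645), with slide row as a block (0.57, adjusted p 0.141) and with normexp (0.46 and 0.41).

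Probes also disagreed for the other brain sodium channels. The brightest Scn2a probe had a change of 0.031 (limma adjusted p = 0.758), while the other probes changed by 0.52 and 0.48 (limma adjusted p = 0.032 and 0.0125). Scn1a had a change of 0.052 by its brightest probe and a higher call by the other (change 0.62, SE 0.16, limma adjusted p = 0.0478). Scn8a, a main pore of mature axons, had a change of 0.096 (limma adjusted p = 0.523), and its dimmer probes had -0.071 and -0.39 (limma adjusted p = 0.399 and 0.0344). Scn4a, the muscle pore, had a change of -0.12 (limma adjusted p = 0.125). Kcnq1ot1, the noncoding RNA of the imprinted Kcnq1 locus, varied from -3.65 to -2.49 across knockdown arrays, and its change of 0.099 had an SE of 0.35.

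Several probes were tested for 29 channel genes. Of their 31 other probes, 22 had the same sign of change as the brightest one and 5 were called. For Kcnip3 and for the dim probe of Kcnj14 the calls went the same way as the brightest probe, and for Kcnma1, Kcnn3 and Scn1a the brightest probe was not called. Counted by probe, 15 of 127 channel probes were called (11.8%), against 7.17% of all probes tested. That background also holds probes with no matched gene symbol, so the shares are not like for like. By gene the shares were 10.4% and 8.90%. Where on the transcript each probe lies was not analysed here, so which isoforms these differences follow was not tested.

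**Figure D4:**
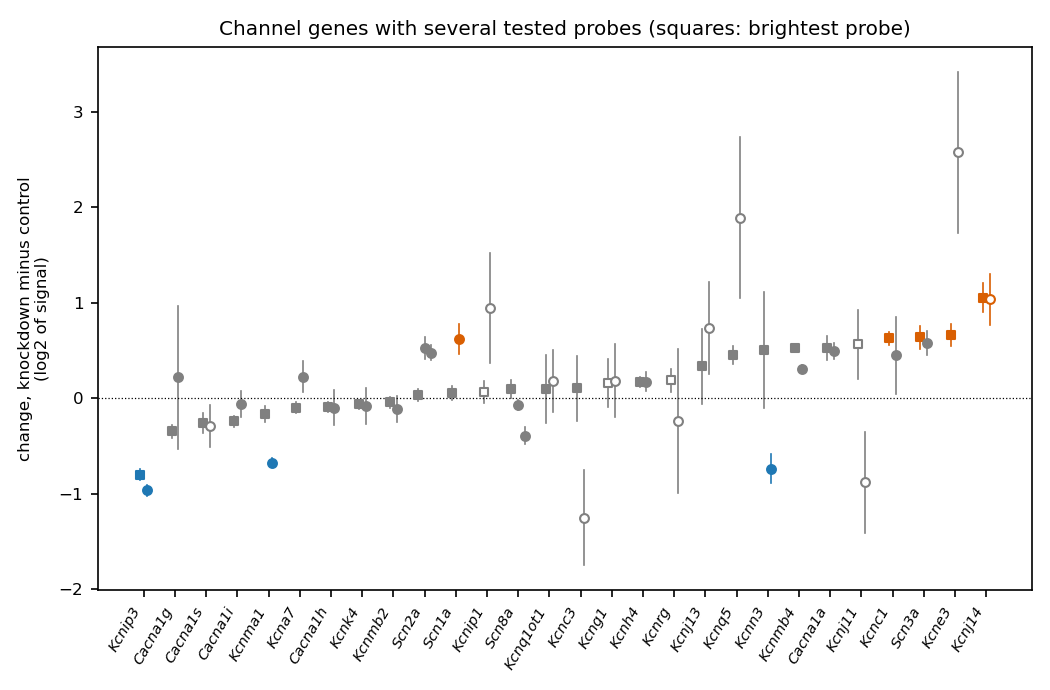
Change (knockdown minus control, log2 of signal, ± SE) of each tested probe of the channel genes with several tested probes, 1 of which is not drawn. Squares are the brightest probe of a gene, blue and orange mark probes called lower and higher, and open symbols were not well above background on all 6 arrays. The other probes of Kcnma1 (-0.68) and Kcnn3 (-0.74) were called lower and that of Scn1a (0.62) higher although the brightest were not.

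Genes that work with the channels were counted from lists of general knowledge. Of 24 tested partners, such as ankyrins, fibroblast growth factor homologous factors, calmodulins and the repressor Rest, none was called, and the median change was -0.091. An unadjusted limma p below 0.05 was reached by 9 of the 24, beside 46.2% of all genes tested. Of 49 tested channels of other families, 3 were called lower and 4 higher (14.3%, beside 8.90% of all genes tested). Their median change was 0.013. The lysosomal channel gene Tpcn1 fell by 1.59 (limma adjusted p = 0.000332), the chloride transporter gene Clcn6 by 0.90 and the cation channel gene Trpv2 by 0.68, while Clcn2 rose by 0.60, Orai2 by 0.64, and Hcn4 and Cnga1 rose from control values not well above background. Of 22 tested pumps and exchangers, 2 were called lower and 2 higher (18.2%, beside the same 8.90%), with a median of 0.10. Slc8a2, a sodium-calcium exchanger, fell by 1.16 and Slc12a2 by 0.84, whereas the neuronal chloride extruder Slc12a5 rose by 0.64 and Atp1a4 rose to at least 1.42-fold.

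Markers of other cells were read beside these results. Over all genes tested, 8.90% were called and 46.2% had an unadjusted limma p below 0.05. Of 10 glial markers, 8 were tested and 6 were well above background on all 6 arrays. Of the tested ones 1 was called lower, the summed level of the list was 0.60 to 0.78 in control and 0.17 to 0.29 in knockdown on the log2 scale, and S100b, Slc1a2 and Slc1a3 cleared background on no array. For the 7 blood-cell markers, of which 6 were tested and none called (2 with an unadjusted limma p below 0.05), the summed level was 3.02 to 3.19 in control and 2.98 to 3.22 in knockdown. For the 8 fibroblast and endothelial markers it was 3.798 to 3.95 and 3.62 to 3.75, with Col1a1 called lower and Pdgfra higher. In the sympathetic list only Th of 18 tested genes was called (lower, change -0.62), while 13 of the 18 had an unadjusted limma p below 0.05. Groups did not overlap for 9 genes with lower and 5 with higher knockdown values, beside 54.7% of all genes tested. The summed level of that list was 8.996 to 9.033 in control and 8.909 to 8.959 in knockdown. All 6 arrays carried RNA of 1 cell line, so these sums are RNA levels and do not count glial, blood or fibroblast cells. Fewer cells of the line with a marker cannot be told apart from less of its RNA per cell. The part of these shifts in the channel results was not tested.

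Across the 20 alternatives, 1 of which drops the minimum fold, Kcnab1, Kcnh2, Kcnip3 and Kcna5 were called each time. Kcnj14 and Kcne2 were called in 17, Kcnc1 in 16, Scn3a in 13 and Kcne3 in 11 of 20. The alternatives reuse the same arrays and are not independent. Dropping the minimum fold keeps the fit and loosens the rule, so it could not lose a call, and the series matrix nearly repeats the scaling. With slide row as a block, which sets knockdown array 1 against the 3 controls in its row, Kcnab1, Kcnh2, Kcnip3, Kcna5, Kcnc1 and Kcne2 remained called.

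**Figure D5:**
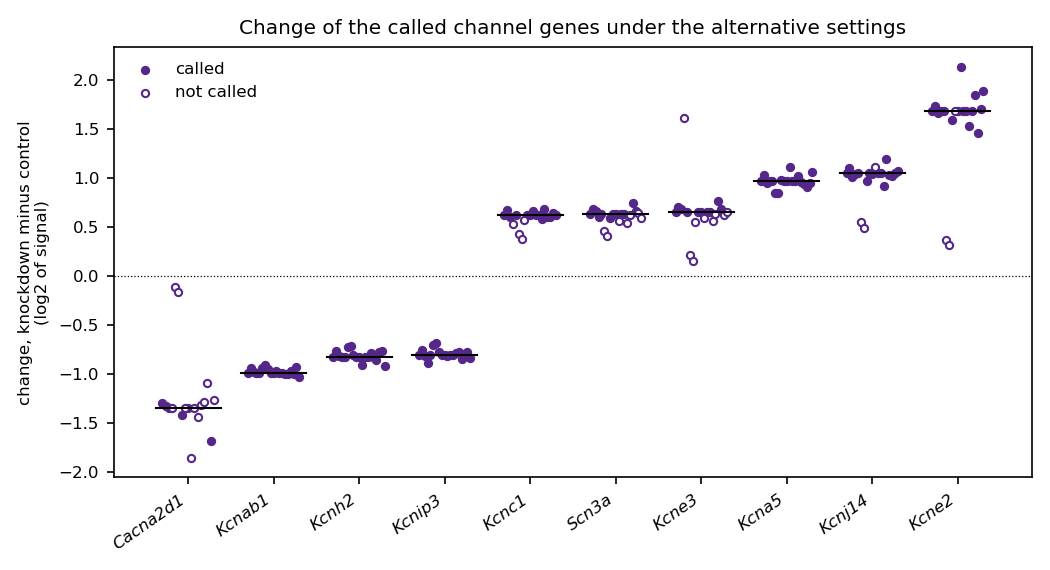
Change (knockdown minus control, log2 of signal) of the 10 called channel genes under each alternative analysis other than dropping the minimum fold, with the reported value as a black line. Filled points were called and open points not; Kcnab1 stays between -1.03 and -0.91, whereas Kcnc1 ranges from 0.38 to 0.68. Sizes for Cacna2d1 and Kcne2 rest on groups not above background.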

How the data were processed

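RNA of transfected neuro2a cells, 3 control and 3 knockdown samples, was hybridised to Agilent mouse arrays. The authors scanned them and ran Agilent Feature Extraction 10.10.1.1, per the submitters' processing notes. In the deposited scanner tables a spot has a processed signal, on an intensity scale, and flags for background, saturation and outliers. The deposited series matrix holds log2 values, and their differences between arrays matched those of the scaling used here within 0.0076 over 43742 single-spot probes. Its gene-wise centring is not stated, and its column medians ran from -0.012 to 0.018.

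Control spots and outlier spots were left out, log2 intensity minus the array's 75th percentile was taken, and replicate spots were averaged. The filter kept 42126 of 55681 probes, and 245 had a missing value. Symbols came from RefSeq through accessions (26570 of 27163 curated accessions matched). R 4.3.3 and limma 3.58.1 gave moderated two-sided tests from lmFit and eBayes without covariates, p-values were adjusted across the 42126 probes by Benjamini-Hochberg, and the method was tested on simulated data. The number of arrays limits the precision. No count depth applies.

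The channel genes, the lists and the tests were chosen with earlier results of these data known. Named are Nfya, Nfyc, all called channel genes, the well-detected gene with the largest change in each class and a fixed list of textbook neuronal channel genes and channel genes seen in earlier results. All other genes, and the probe disagreements, were singled out after their values were seen. Alternatives were quantile normalization, scaling to well-detected probes, normexp with an offset of 50, the series matrix, other filters, the mean of a gene's probes, a variance trend, array weights, no minimum fold, replicate or slide row as a block, and leaving out each array. Normexp used the median foreground signal. Some genes that this rule names are not reported here.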

Additional observations from a re-analysis of the deposited data

How the results depend on the processing

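The 5 summary results were Nfya, Nfyc, the counts of lower and higher channel genes and their median change. Nfya and Nfyc were called in each alternative. The count of 4 lower genes was 3 to 5 in all alternatives except with no minimum fold (7), and leaving out 1 array gave 3 to 5. The count of 6 higher genes was 16 with no minimum fold and 1 with normexp under either scaling, and leaving out 1 array gave 4 to 7. The median change of 0.054 was 0.107 when scaled to well-detected probes, 0.0166 with the mean of a gene's probes, 0.183 with no filter, 0.0279 with the filter on well-detected probes, 0.0111 with slide row as a block, -0.0170 with quantile normalization and -0.0048 with normexp and quantile normalization. Leaving out 1 array gave -0.0174 (without knockdown array 2) to 0.0638 (without control array 1), with -0.00046 without knockdown array 1, 0.0218 without control array 3, 0.0296 without control array 2 and 0.0345 without knockdown array 3, so its sign was not stable. The median over all genes tested moved too, from 0.0053 to 0.058 when scaled to well-detected probes and to 0.051 with no filter. It was 0.010 with quantile normalization and 0.029 with slide row as a block, where the channel median fell.

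The replicate numbers of control and knockdown arrays showed no clear pairing: deviations of same-numbered arrays correlated at 0.018, 0.067 and 0.0025 over probes. Control arrays 1 and 2 correlated best with their same-numbered knockdown array, and control array 3 with knockdown array 1 (0.063). Correlations this small cannot show whether the replicates were paired. With the replicate number as a block, 3 genes were called lower and 5 higher, and the calls of Cacna2d1 and Kcne2 (limma adjusted p = 0.0649 and 0.0738) were lost. The cause was not tested.

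Among named genes that were not called, the sign of small changes turned in several settings. Kcnd3 became 0.047 when scaled to well-detected probes, 0.0021 with array weights and 0.054 with normexp, and leaving out 1 array gave -0.054 (knockdown array 2) to 0.041 (control array 1), with 0.021 and 0.017 without knockdown arrays 1 and 3. Scn2a became -0.0045 with quantile normalization, -0.0056 with normexp and quantile normalization, -0.011 with slide row as a block and, leaving out 1 array, -0.012 (control array 3) to 0.077 (control array 1). Kcnq1ot1 became -0.42 with slide row as a block, -0.11 without control array 1 and, leaving out 1 array, -0.22 (knockdown array 2) to 0.36 (knockdown array 1). Kcnn2 became -0.0031, -0.0066 and -0.014 without control array 1, control array 2 and knockdown array 1, and 0.090 without control array 3. Kcnf1 became 0.069 with slide row as a block, Cacna2d2 -0.0019 with normexp and quantile normalization, Cacna2d4 -0.059 without knockdown array 2 (0.45 without knockdown array 3) and Scn8a -0.12 with the mean of its probes. Signals near background, as for Cacna2d1, Kcne2 and Kcnb2, limited what could be measured.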

Other observations

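Single arrays stood apart for some channel genes, a pattern noticed after the values were seen. On knockdown array 2, 4 of the 96 tested channel genes read more than 1 log2 unit above every other array, beside 0.54% of all genes tested. They were Cacng6 (0.24 against at most -1.72 elsewhere), Kcnj3 (-3.31 against -5.37), Kcnn3 (-0.88 against -1.94) and Kcnt1 (-0.79 against -5.95). On knockdown arrays 1 and 3 and control array 3 no channel gene did so, on control array 1 Kcnmb3 did (-5.96 against -7.19, not well above background), and on control array 2 Kcna6 did (-1.17 against -4.59). On knockdown array 3 the share of all genes was also 0.54%. None of these genes was called by its brightest probe, and the cause was not tested. Kcnt1 was tested only because knockdown passed the filter, so its place in this count was partly built in. Tested channel genes were also dimmer as a set. Of them 70.8% were well above background on all 6 arrays, against 84.8% of all genes tested.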
